A study of Mus musculus with 9 samples.

Results

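Slc6a11, Vamp1, Tac1 and Pdzd2 are the 4 genes that the study assigned to the functioning of the synapse among those down-regulated in mice homozygous for a mutation of Kcnd3. They were read from 4 of the 56953 rows of the count table, and all 4 were among the 10842 genes with enough counts to be tested. The study chose them for a lower level in KI/KI than in WT mice on the same libraries, so that this difference is described here without a test. The values used for that choice are the counts of the KI/KI and WT libraries, and the comparison of KI/KI with KI/+ mice is treated in the same way because the study drew on it too.

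Tissue was taken at 1.5 months of age from mice of 3 genotypes, with 3 libraries per genotype from animals that were all labelled female. WT mice carried no mutant allele, KI/+ mice carried 1 and KI/KI mice carried 2 alleles of Kcnd3 F227del, an in-frame deletion of 1 phenylalanine codon in the gene of the A-type potassium channel Kv4.3. The allele was knocked in by homologous recombination in ES cells and crossed onto C57BL/6J, so that it was present in every cell of the animal and not in Purkinje cells alone. Laser microdissection took Purkinje cells together with the tissue next to them, and in such a bulk sample fewer cells of a type and less RNA per cell cannot be told apart.

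Slc6a11 encodes GAT-3, a transporter that takes the inhibitory transmitter GABA up from the extracellular space and is found in the brain mainly on astrocytes. Vamp1 encodes synaptobrevin-1, a SNARE protein of the vesicle membrane that pairs with its partners on the plasma membrane to fuse synaptic vesicles. Tac1 encodes the precursor from which the neuropeptides substance P and neurokinin A are cut, and Pdzd2 encodes a large protein with several PDZ domains, which bind the tails of other proteins. Fusion of vesicles releases transmitter or peptide from a nerve terminal, and transporters such as GAT-3 clear transmitter afterwards.

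Slc6a11 (ENSMUSG00000030307) lies on chr6:114131241-114249952, Vamp1 (ENSMUSG00000030337) on chr6:125215551-125245964 and Tac1 (ENSMUSG00000061762) on chr6:7554879-7565834, each on the plus strand of GRCm38 in GENCODE vM21. Pdzd2 (ENSMUSG00000022197) lies on chr15:12359711-12739924 on the minus strand. The 300 bases around the start of each gene in RefSeq, from 250 before it to 50 after it, are shown because the 4 genes were lower together in KI/KI mice. The starts in RefSeq differ from those of GENCODE vM21 for Vamp1, Tac1 and Pdzd2. The sequences come from RefSeq on GRCm38.p6, where 4 of 4 genes matched, and are written 5′ to 3′ on the strand of the gene. Capitals mark matches on either strand to 4 motifs, namely the TATA box TATAAA, the CCAAT box CCAAT, the GC box GGGCGG and the core of the cyclic AMP response element TGACG.
Slc6a11, chr6:114130991-114131290, plus strand: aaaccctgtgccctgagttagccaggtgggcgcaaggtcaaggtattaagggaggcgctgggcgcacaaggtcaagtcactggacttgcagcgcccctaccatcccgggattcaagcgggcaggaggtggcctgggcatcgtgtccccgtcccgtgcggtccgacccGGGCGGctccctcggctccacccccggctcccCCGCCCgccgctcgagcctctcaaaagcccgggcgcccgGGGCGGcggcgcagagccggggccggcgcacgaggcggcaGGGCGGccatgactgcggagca
Vamp1, chr6:125215331-125215630, plus strand: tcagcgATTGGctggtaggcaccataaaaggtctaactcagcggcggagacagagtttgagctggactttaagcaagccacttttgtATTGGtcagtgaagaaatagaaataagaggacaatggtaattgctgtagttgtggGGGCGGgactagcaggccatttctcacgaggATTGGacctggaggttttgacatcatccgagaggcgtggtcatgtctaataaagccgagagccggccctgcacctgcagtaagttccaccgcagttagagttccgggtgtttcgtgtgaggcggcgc
Tac1, chr6:7554811-7555110, plus strand: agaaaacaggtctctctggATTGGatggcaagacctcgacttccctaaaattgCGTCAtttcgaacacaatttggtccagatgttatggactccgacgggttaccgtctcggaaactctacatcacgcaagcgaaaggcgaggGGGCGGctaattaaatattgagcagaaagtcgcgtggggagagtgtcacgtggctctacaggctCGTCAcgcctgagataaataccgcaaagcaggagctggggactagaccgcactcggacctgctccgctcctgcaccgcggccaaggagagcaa
Pdzd2, chr15:12739843-12740142, minus strand: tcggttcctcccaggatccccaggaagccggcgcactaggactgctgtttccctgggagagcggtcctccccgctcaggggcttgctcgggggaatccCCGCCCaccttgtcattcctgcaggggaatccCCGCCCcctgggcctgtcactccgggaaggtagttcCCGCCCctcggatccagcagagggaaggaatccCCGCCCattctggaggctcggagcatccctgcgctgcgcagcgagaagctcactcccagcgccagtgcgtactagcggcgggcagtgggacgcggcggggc

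The windows of Slc6a11 and Pdzd2 were alike in base composition, with 72.3% and 68.7% G or C, above the median of 52.7% over 32851 promoters of the same length. Each of these windows held 4 GC boxes and none of the other motifs. The window of Vamp1, at 51.7% G or C, held 3 CCAAT boxes and 1 GC box. That of Tac1, at 54% G or C, was the sole window of the 4 with the TGACG core, which occurred 2 times beside 1 CCAAT box and 1 GC box. A GC box, found in 35.7% of all promoters, was in all 4 windows, whereas a CCAAT box is in 37.4%, a TGACG core in 20.8% and a TATA box in 13.6% of all promoters. A match describes these letters and is not evidence that a factor binds there.

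Total counts per library lay between 1915339, in KI/+ replicate 3, and 4032357, in KI/KI replicate 1, and the levels below are CPM (counts scaled to library size) after TMM scaling between libraries. The replicate 1 libraries stood apart from the rest. The mean chi-square per gene between the counts of a pair of libraries, which is near 1 where they differ by counting noise alone, was 1.47 to 2.7 for the 3 pairs of replicate 1 libraries, all from different genotypes. It was 8.21 to 13.4 for the 18 pairs with a single replicate 1 library and 1.28 to 7.89 for the 15 pairs with none. No pair was thus as alike as counting noise allows. Among the 15, the pairs with KI/KI replicate 3 were at 4.43 to 7.89 and the others at 1.28 to 3.91. KI/KI replicate 3 therefore stood apart as well. Changes are therefore also given for replicates 2 and 3 alone, which still hold KI/KI replicate 3. The names of the replicate 1 and 2 libraries begin with L1 in every genotype, whereas those of replicate 3 begin with a different L number in each. Within replicate 3 this label and genotype cannot be told apart, and what it stands for is not given. Kcnd3 itself had 2.08 to 7.86 CPM in libraries of WT, 3.16 to 4.81 of KI/+ and 2.55 to 4.87 of KI/KI mice, and a 3-base deletion leaves no mark in a count that would check the labels.

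The symbols are those of the deposited identifiers, and whether the reads lie on the genes so named was not tested. The version number of the identifier was higher than in GENCODE vM21 for all 4 genes, as it was for 51992 of 52029 matched identifiers (99.9%). Of 15 genes that most cells use, 3 had enough counts to be tested, and Eef1a1 (a translation elongation factor) had 0 counts over the 9 libraries, Cox4i1 (a subunit of cytochrome c oxidase) 1, Hspa5 (an ER chaperone) 3 and Actb (beta-actin) 37. The 4 genes had 807 (Slc6a11), 51357 (Vamp1), 355 (Tac1) and 3102 (Pdzd2) counts over the same libraries.

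Slc6a11 was measured at 36.3, 51.1 and 51.4 CPM in the WT libraries, 44.2, 41.4 and 31.1 in the KI/+ libraries and 18.0, 16.3 and 13.2 in the KI/KI libraries, in the order of replicates 1 to 3. Every KI/KI library lay below every other library, while KI/+ and WT libraries overlapped. The means were 46.3 ± 8.62 (SD, n = 3) CPM in WT, in KI/+ mice 38.9 ± 6.92 and in KI/KI mice 15.8 ± 2.39, which puts KI/+ at 84.0% and KI/KI at 34.2% of WT. In edgeR's fit of all 9 libraries the log2 change of Slc6a11 in KI/KI mice was -1.52 (standard error 0.18) against WT and -1.29 (standard error 0.18) against KI/+. With replicates 2 and 3 alone the former was -1.78 and the latter stayed at -1.29.

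Vamp1 was by far the most abundant of the 4 genes. Its levels were 2028, 2794 and 2891 CPM in the WT libraries, 2026, 2003 and 1859 in the KI/+ libraries and 1711, 1748 and 1580 in the KI/KI libraries. No genotype overlapped another, but WT replicate 1 exceeded the highest KI/+ library only by the difference between 78.9% and 78.8% of the WT mean. Vamp1 averaged 2570 ± 473 (SD, n = 3) CPM in WT, in KI/+ mice 1960 ± 90.9 and in KI/KI mice 1680 ± 88.6, or 76.3% of WT in KI/+ and 65.3% in KI/KI. The spread of the WT libraries was the widest and came from replicate 1. The log2 change was -0.61 (standard error 0.098) in KI/KI against WT and -0.23 (standard error 0.098) in KI/KI against KI/+ mice, and -0.78 and -0.22 with replicates 2 and 3 alone.

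Tac1 was the scarcest of the 4 and varied most within a genotype. In WT libraries it had 24.7, 23.3 and 21.2 CPM, in KI/+ libraries 31.4, 17.0 and 4.74, and in KI/KI libraries 5.64, 2.8 and 1.89. These levels rest on 49 to 66 counts per WT library and on 22, 11 and 5 counts in the KI/KI libraries, while KI/+ replicate 3 held 9 counts against 91 and 46 in the other KI/+ libraries. All KI/KI libraries were below all WT libraries, whereas KI/+ covered a range from above the highest WT library to within the KI/KI libraries. Mean levels of Tac1 were 23 ± 1.79 (SD, n = 3) CPM in WT, in KI/+ mice 17.7 ± 13.4 and in KI/KI mice 3.45 ± 1.96, so that KI/KI stood at 14.9% of WT. The log2 change in KI/KI mice was -2.66 (standard error 0.45) against WT and -2.37 (standard error 0.46) against KI/+, and -3.18 and -2.24 with replicates 2 and 3 alone. The change against KI/+ depended on single libraries. Leaving each library out in turn gave -2.93 to -1.68, the smallest change being the one without KI/+ replicate 1.

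Pdzd2 was measured at 138, 178 and 159 CPM in WT, at 119, 129 and 116 in KI/+ and at 90.5, 113 and 84.7 in KI/KI libraries. The 3 genotypes did not overlap, but KI/KI replicate 2 at 113 came close to KI/+ replicate 3 at 116. The share of all genes without overlap is given below for each comparison. For all 3 genotypes at once, as seen in Vamp1 and Pdzd2, it was not computed. Their means were 158 ± 19.9 (SD, n = 3), 122 ± 7.02 and 96.1 ± 15.0 CPM, with KI/+ at 76.8% and KI/KI at 60.7% of WT. For Pdzd2 the log2 change was -0.71 (standard error 0.11) in KI/KI against WT and -0.33 (standard error 0.11) in KI/KI against KI/+ mice, and -0.76 and -0.30 with replicates 2 and 3 alone.

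**Figure D1:**
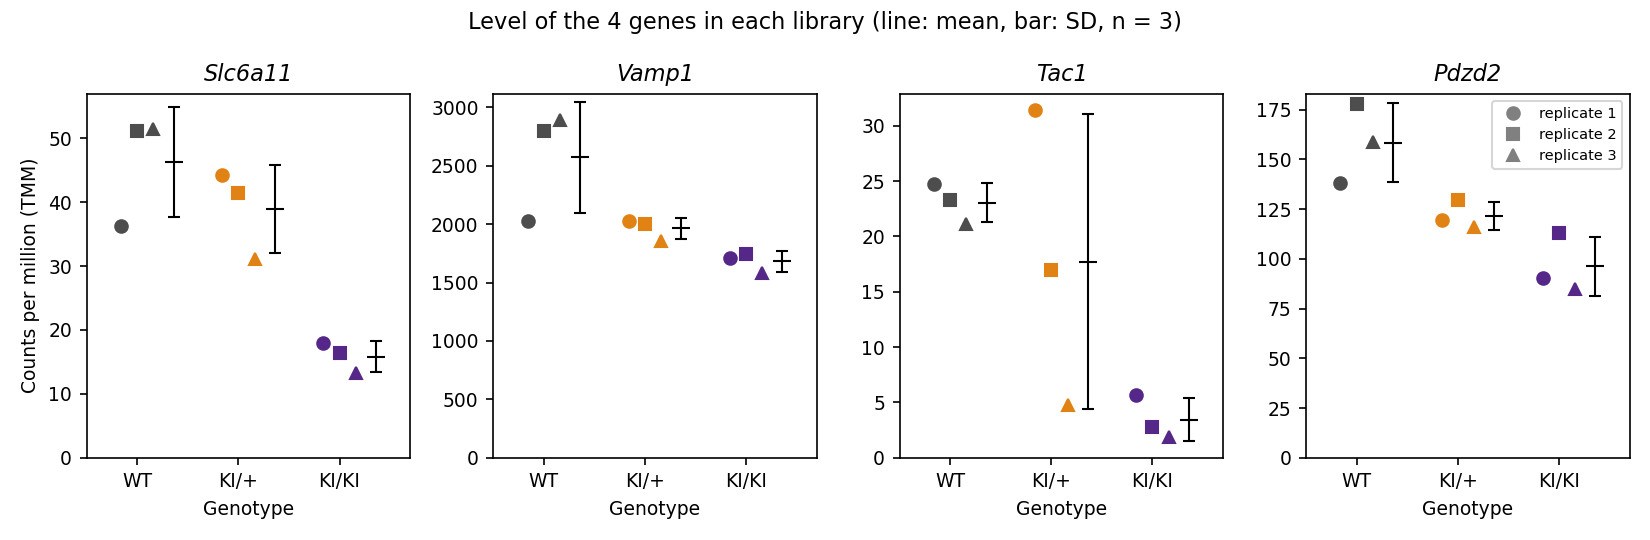
Level of Slc6a11, Vamp1, Tac1 and Pdzd2 in CPM (vertical axes, each from 0) by genotype, with a point for each of 9 libraries, shaped by replicate, and the mean and SD of 3 libraries beside them. The KI/KI points lie below the WT points in all 4 panels, and the KI/+ points of Tac1 run from 31.4 to 4.74.

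Per length, the order of the genes differed from that of the raw levels. The WT level per kilobase of exon was 253 CPM for Vamp1, 9.16 for Slc6a11, 8.60 for Pdzd2 and 6.78 for Tac1, where the exons of Pdzd2 span 18419 bases, those of Vamp1 10167, those of Slc6a11 5050 and those of Tac1 3399. In KI/KI mice the same measure was 165 for Vamp1, 5.22 for Pdzd2, 3.14 for Slc6a11 and 1.01 for Tac1, so that Pdzd2 took the place of Slc6a11. Among the genes tested, the mean WT level in CPM of Vamp1 exceeded that of 99.8%, of Pdzd2 87.2%, of Slc6a11 64.6% and of Tac1 47.9%.

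In KI/KI against WT mice all 4 genes passed the study's criteria in edgeR's fit, a fold-change above 1.3 with an FDR (the share of false calls expected) below 0.2. The falls were 2.86-fold (Slc6a11), 1.53-fold (Vamp1), 6.34-fold (Tac1) and 1.64-fold (Pdzd2). Of all genes tested, 1.15% passed in this direction. Against KI/+ mice, where 0.304% of genes passed as lower, Slc6a11 (2.45-fold) and Tac1 (5.17-fold) were inside the criteria, and Pdzd2 (1.26-fold) and Vamp1 (1.17-fold) were outside. Since the genes were chosen on these values, nothing is read from either count. The study applied its criteria with DESeq2, which here called Vamp1 and Pdzd2 against WT and none of the 4 against KI/+. For Slc6a11 and Tac1 it gave no adjusted p in either comparison, so that neither could be called whatever its change. Its log2 changes for them were -1.53 and -2.73 against WT and -1.3 and -2.36 against KI/+. The KI/KI libraries were all below the WT libraries for 4 of 4 genes, as for 8.09% of genes tested, and all below the KI/+ libraries for Slc6a11, Vamp1 and Pdzd2, as for 7.28%. The median log2 change of the 4 genes was -1.11 in KI/KI against WT and -0.81 in KI/KI against KI/+ mice, beside medians of 0.0062 and 0.0039 over all genes tested.

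The comparison of KI/+ with WT mice shares the WT libraries with the choice of the genes and is not independent of it. No gene among the 10842 passed the criteria in either direction (0%), and each of the 4 genes had an FDR of 0.998 by edgeR's quasi-likelihood test. The log2 changes were -0.22 (standard error 0.16) for Slc6a11, -0.39 (standard error 0.098) for Vamp1, -0.30 (standard error 0.36) for Tac1 and -0.38 (standard error 0.11) for Pdzd2. All 3 KI/+ libraries lay below the WT libraries for Vamp1 and Pdzd2 but not for Slc6a11 and Tac1, and this was so for 4.65% of genes tested. Before adjustment the p of edgeR's test was 0.000897 for Vamp1 and 0.00345 for Pdzd2, and 254 genes (2.34%) were lower with an unadjusted p under 0.05, out of 459 (4.23%) in either direction. DESeq2 and limma-voom called 0 genes as well, whereas 27 genes were lower and 6 higher without WT replicate 1, 47 and 12 with replicates 2 and 3 alone, and 32 and 6 without a count filter. The median log2 change of the 4 genes was -0.34, beside -0.0015 over all genes tested. With replicates 2 and 3 alone the log2 changes were -0.48 (Slc6a11), -0.56 (Vamp1), -0.93 (Tac1) and -0.46 (Pdzd2), with FDR of 0.515, 0.000559, 0.561 and 0.245 by edgeR. Without the library of WT replicate 1, Vamp1 had a log2 change of -0.53 and an FDR of 0.00159. The call depended on the fit with all 9 libraries too. There the FDR of Vamp1 by edgeR was 0.471 with a term for the replicate 1 libraries, 0.548 with a replicate block and 1.25e-05 without a count filter. The library of KI/+ replicate 3 decided the direction of Tac1, whose log2 change was 0.0767 without it and -0.99 without KI/+ replicate 1. That of Slc6a11 ranged from -0.0206 with the libraries labelled L1, which are replicates 1 and 2, to -0.48 with replicates 2 and 3.

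The means of all 4 genes ran in the order of KI/KI, KI/+ and WT, as did those of 1901 genes tested (17.5%), and the choice of the genes fixed the order of the outer pair. The share of the fall reached with 1 mutant allele is given by gene, and its difference between genes was not tested. In the log2 of the mean CPM, KI/+ mice had gone 63.4% of the way from WT to KI/KI for Vamp1 and 53.0% for Pdzd2, and 16.2% for Slc6a11 and 13.8% for Tac1. The latter pair of shares moves with the ranges just given for KI/+ against WT. That of Tac1 leans on KI/+ replicate 1, which at 31.4 CPM, beside 17.0 and 4.74, weighs most in the mean. The level in KI/+ mice was also set against the midpoint of WT and KI/KI on the log scale. This contrast is independent of the difference between KI/KI and WT mice only where both genotypes have the same spread. For Tac1 the deviations from the genotype mean were 0.1, 0.0166 and -0.117 in WT but 0.714, -0.14 and -0.574 in KI/KI libraries. Nor is the contrast independent of the difference between KI/KI and KI/+, on which the study drew too. Slc6a11 and Tac1 were the genes inside the criteria there, so that their departures may share in the choice. Vamp1 lay at the midpoint within its error, with a departure of -0.0822 on the log2 scale (95% interval -0.25 to 0.0838, FDR 0.932), as did Pdzd2 with -0.0215 (95% interval -0.21 to 0.17, FDR 0.992). Slc6a11 was above the midpoint by 0.54 (95% interval 0.25 to 0.83) and Tac1 by 1.04 (95% interval 0.35 to 1.73), both with intervals above 0 before adjustment and both with an FDR of 0.881 over all genes tested. At an FDR under 0.2 this contrast called 2 genes (0.0184%), none of them among the 4, while an unadjusted p under 0.05 was reached by 604 (5.57%). The departure of Tac1 was 0.35 (FDR 0.856) without KI/+ replicate 1 and 1.41 (FDR 0.0687) without KI/+ replicate 3, and with replicates 2 and 3 alone it was 0.66 with an FDR of 0.707. The departure of Slc6a11 ranged from 0.41 to 0.66 over the alternatives.

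**Figure D2:**
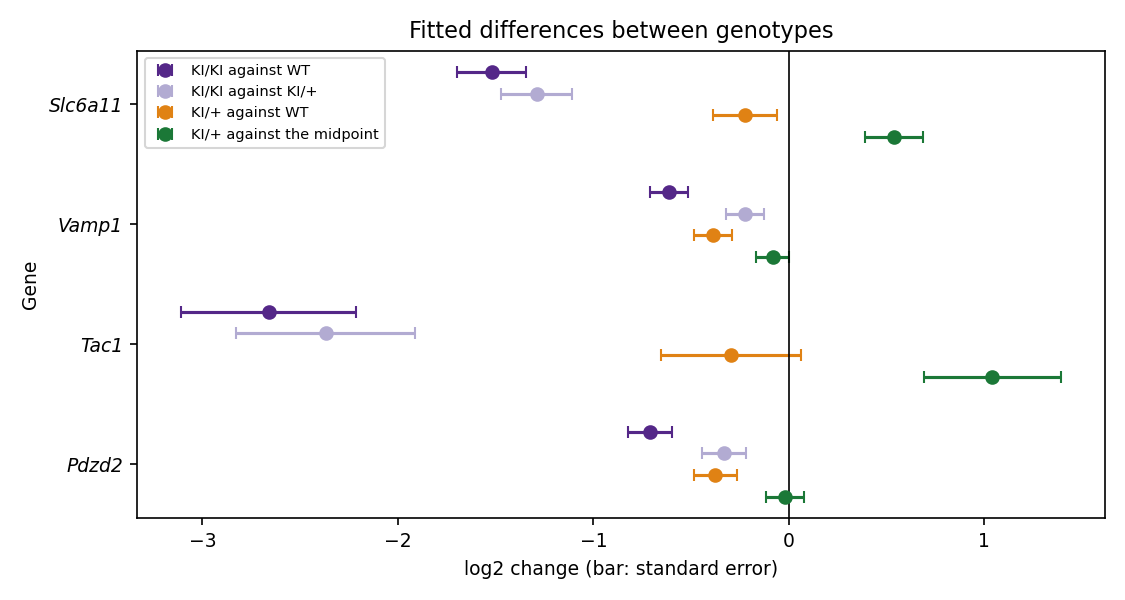
Fitted log2 changes (horizontal axis) of the 4 genes in 4 contrasts, with bars for the standard error and a line at 0. The points for KI/+ against the midpoint lie at 0.54 for Slc6a11 and 1.04 for Tac1, and within 1 standard error of 0 for Vamp1 and Pdzd2.

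Whether the genes moved in step was asked within genotypes, since the genotype difference that chose them would by itself make them correlate over the 9 libraries. Each library's log2 CPM was taken as its deviation from the mean of its genotype, and an exact two-sided permutation test was run over all arrangements of libraries within genotypes, with adjustment over the 6 pairs of genes. The test treats the libraries of a genotype as exchangeable, although the replicate 1 libraries and KI/KI replicate 3 stood apart. Slc6a11 and Vamp1 deviated to the same side in 9 of 9 libraries, with a Pearson's r of 0.84 (p = 0.0231, adjusted p = 0.13) and a Spearman's rho of 0.63 (p = 0.0833). In exact permutation tests Slc6a11 and Tac1 gave r = 0.69 (p = 0.0463, adjusted p = 0.13) and rho = 0.65 (p = 0.116), with 6 of 9 libraries on the same side, and Vamp1 and Pdzd2 gave r = 0.69 (p = 0.0648, adjusted p = 0.13) and rho = 0.83 (p = 0.0463), with 7 of 9. None of the 6 pairs passed 0.05 after adjustment. The other 3 pairs had r = 0.60 (Slc6a11 and Pdzd2), 0.21 (Vamp1 and Tac1) and 0.10 (Tac1 and Pdzd2), with adjusted p from exact permutation of 0.222, 0.322 and 0.731 and rho of 0.33, 0.10 and -0.0333. For Vamp1 and Tac1 r rose to 0.75 without WT replicate 1 (adjusted p = 0.25 by exact permutation), to 0.73 with replicates 2 and 3 alone and to 0.78 without the 2 libraries farthest from the median. For the pairs with adjusted p = 0.13, without these 2 farthest libraries r was 0.87 for Slc6a11 and Vamp1, 0.63 for Slc6a11 and Tac1 and 0.72 for Vamp1 and Pdzd2. With replicates 2 and 3 alone these 3 values were 0.92, 0.93 and 0.79 (adjusted p = 0.5 for each by exact permutation of 6 libraries), and with the libraries labelled L1, which are replicates 1 and 2, they were 0.94, 0.24 and 0.76. With 2 libraries per genotype there are too few arrangements for this test to pass 0.05, so that its p decides nothing there.

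The deviations of Tac1 moved with the depth of the libraries. In 3 of 3 genotypes the order of its CPM was the order of the total counts, and its deviations had an r of 0.87 with the log2 total over the 9 libraries, which share the genotype means that were taken out. The same r was 0.55 for Slc6a11, 0.27 for Pdzd2 and 0.0534 for Vamp1, and the order matched in 2, 0 and 1 of 3 genotypes. How many of all genes tested have such an order or r was not computed, so that Tac1 cannot be called unusual in this. Total counts fell from replicate 1 through 2 to 3 in each genotype, so that depth and replicate order cannot be told apart here. The part of either in these levels was not tested.

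**Figure D3:**
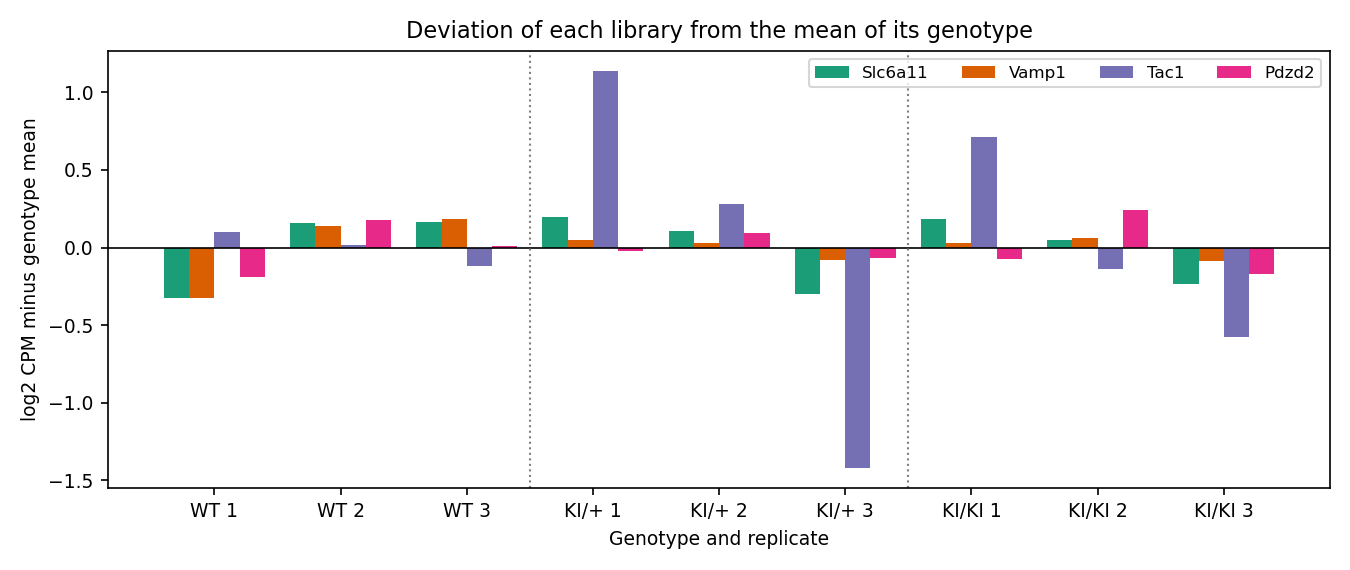
Deviation of log2 CPM from the mean of the genotype (vertical axis) for the 4 genes in each of 9 libraries, grouped by genotype and replicate. The bars of Slc6a11 and Vamp1 point the same way in every library, and the longest bars are those of Tac1 in KI/+ replicates 1 and 3.

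Across all 9 libraries, in log2 CPM and with the genotype difference left in, the gene most like Slc6a11 was 5830411N06Rik (r = 0.975), followed by Cant1 (0.973) and Klhl11 (0.970). For Vamp1 they were Gpr37 (0.972), Ces2a (0.969) and Gm37931 (0.965), for Tac1 Rnf123 (0.979), Tmem215 (0.976) and Ace (0.975), and for Pdzd2 Nol6 (0.967), Colq (0.957) and Myb (0.951). These correlations describe 9 libraries that share genotype, depth and scaling, and no test was made of them. Among each other the genes ranked lower. Vamp1 had rank 17 in likeness to Pdzd2, with r = 0.925, and Slc6a11 had rank 26 in likeness to Tac1, with r = 0.914, while Vamp1 and Tac1 had the lowest value of the 6 pairs at 0.731.

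Other genes of the same pathways were read from lists of 92 genes, of which 91 were listed and 44 had enough counts to be tested. In KI/KI against WT mice 1 of the 44 fell and 0 rose at the study's criteria, beside 1.15% of all genes lower and 0.175% higher. Against KI/+ mice, where 0.304% of all genes were lower and 0.083% higher, and in KI/+ against WT mice the count was 0 by edgeR, DESeq2 and limma-voom, with 5 and 2 of the 44 at an unadjusted p under 0.05, beside 9.24% and 4.23% of all genes tested. In KI/KI against WT mice this p was reached by 7 of the 44, beside 10% of all genes. The median log2 change of the 44 genes in KI/KI against WT mice was 0.0045. The gene that fell was Pdzd4, a PDZ protein of the same naming family as Pdzd2, with 7.53 ± 4.43 (SD, n = 3) CPM in WT, in KI/+ mice 7.23 ± 5.14 and in KI/KI mice 1.11 ± 1.49. Its log2 change was -2.55 (standard error 0.71, FDR 0.168 by edgeR's quasi-likelihood test), and it rests on 126 counts in all. Without WT replicate 2, WT replicate 3, KI/+ replicate 2 or KI/KI replicate 3 the count of genes called was 0, and without WT replicate 1 it was 4.

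Among 12 genes of GABA handling 5 were tested. Slc38a3, a glutamine transporter of astrocytes, was at 500, 550 and 508 CPM in WT, KI/+ and KI/KI mice, and the glycine transporter Slc6a5 at 95.6, 94.6 and 117. Of 13 GABA-A receptor subunits 4 were tested, led by Gabrb2 with 224 ± 28.6 CPM in WT and a KI/KI level of 285 ± 26.0 (n = 3 each, FDR 0.301 by edgeR).

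Of 27 genes of vesicle fusion, 26 were listed and 14 were tested. Syt7, a calcium sensor of vesicle release, had 286 ± 23.9 CPM in WT and a KI/KI level of 340 ± 58.0 (n = 3 each, FDR 0.479 by edgeR), and the priming factor Unc13b had 166 ± 20.9 and 145 ± 6.50 (FDR 0.52). Vamp2, the close relative of Vamp1 that carries most fast release in the forebrain, had 113 counts in all, against 51357 for Vamp1, and its log2 change was 0.50 (standard error 0.41, FDR 0.75). Snap25, the SNARE partner of both, had 14 counts and was not tested.

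Of the 14 genes of tachykinins and peptide processing 4 were tested. Tac2, the gene of neurokinin B, was at 137 ± 0.778 CPM in WT, in KI/+ mice 136 ± 10.4 and in KI/KI mice 136 ± 16.9 (n = 3 each), and its log2 change from WT to KI/KI was -0.0158 (standard error 0.0937, FDR 0.978 by edgeR). Scg3, a granin of dense-core vesicles, had 189, 175 and 190 CPM. Pam, the enzyme that amidates peptides such as substance P, was at 23.5 ± 1.63 CPM in WT, in KI/+ mice 16.5 ± 1.76 and in KI/KI mice 17.0 ± 4.76 (n = 3 each, FDR 0.462 by edgeR for KI/KI against WT). Among 26 PDZ scaffolds 17 were tested, and besides Pdzd4 the most abundant were Dlg4, the gene of PSD-95, with 481, 494 and 478 CPM and Grip2, a scaffold of AMPA receptors, with 253, 272 and 250.

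The tissue was read against markers of the cell types it could hold. Car8, Calb1 and Itpr1, which are high in Purkinje cells, had mean WT levels of 8170, 5270 and 2610 CPM, but of the 12 markers of this list 5 were tested, and Pcp2 had 12, Pcp4 4 and Ppp1r17 and Slc1a6 0 counts over the 9 libraries. The summed level of the 12 was 15300 to 17800 CPM in libraries of WT, 17700 to 20100 of KI/+ and 17400 to 19600 of KI/KI mice. In no list did a marker pass both criteria in any comparison. An FDR under 0.2 without the fold-change was found in KI/KI against WT mice for Car8 (log2 change 0.25, FDR 0.174 by edgeR) and Calb1 (0.23, FDR 0.197), for Olig2 of the list of oligodendrocyte precursors (0.36, FDR 0.0914, and 0.35 with FDR 0.158 against KI/+) and for the interneuron marker Nxph1 (-0.36, FDR 0.161). Olig2 and Nxph1 are named after their values were seen, and the part of these markers in the changes of the 4 genes was not tested.

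Slc6a11 is known from astrocytes, and the 10 markers of astrocytes and Bergmann glia summed to 847 to 1020 CPM in libraries of WT, 878 to 985 of KI/+ and 997 to 1080 of KI/KI mice, with 3 tested. Gfap, an intermediate filament of astrocytes, made up most of this with 793, 810 and 905 CPM, and the glutamate transporter Slc1a3 had 104, 116 and 114, whereas Aqp4 had 3, Gja1 2 and Gdf10 and Hopx 0 counts. This sum, most of it from Gfap, was not lower in KI/KI libraries. The part of astrocyte number in the level of Slc6a11 was not tested. Tac1 and Vamp1 are known from neurons of the brainstem and deep nuclei, and the 12 markers of these neurons, of which 5 were tested, summed to 362 to 381 CPM in libraries of WT, 375 to 399 of KI/+ and 358 to 385 of KI/KI mice. Chat, the enzyme of acetylcholine synthesis, led with 210, 230 and 215 CPM, followed by the neurofilament Nefh with 84.8, 82.6 and 74.0, while Slc17a6 and Nefm had 1 count each.

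The 10 markers of molecular layer and Golgi interneurons, of which 4 were tested, summed to 200 to 247 CPM in libraries of WT, 191 to 224 of KI/+ and 210 to 231 of KI/KI mice, with Gad1 at 1 count and Gad2, Kit, Lgi2 and Tfap2b at 0. Granule cell markers reached 680 to 827, 620 to 814 and 757 to 893 CPM, and oligodendrocyte markers 2330 to 2760, 1810 to 2750 and 1910 to 2570, of which Mbp (myelin basic protein) had a mean of 2490 in WT. Markers of oligodendrocyte precursors were at 231 to 268, 244 to 263 and 270 to 327 CPM, those of microglia at 27.2 to 32.2, 32.9 to 36.3 and 25.4 to 35.9, those of vessels at 84.2 to 104, 99.0 to 106 and 98.7 to 110, and those of choroid plexus at 21.3 to 26.6, 26.9 to 33.2 and 24.2 to 27.4. Each of the 10 lists held at least 1 defining marker with 4 counts or fewer, so that the cell source of the 4 genes could not be read from these levels. The part of cell makeup in their changes was not tested.

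**Figure D4:**
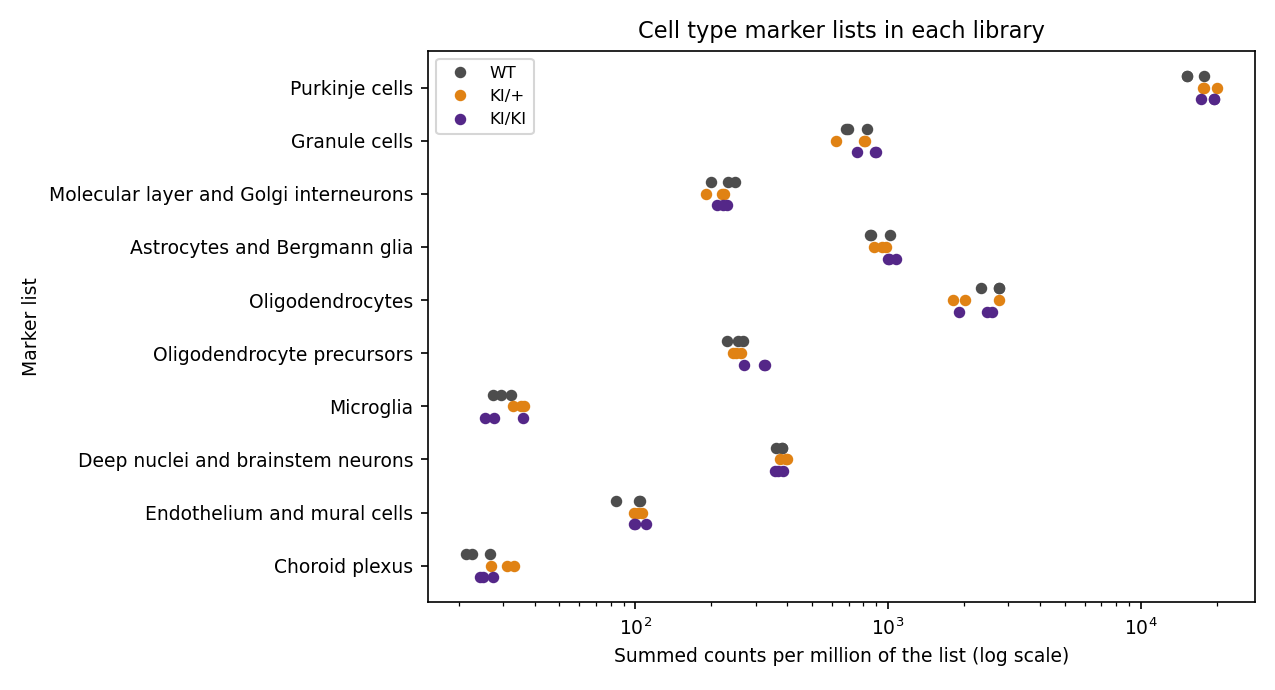
Summed CPM (horizontal log axis) of 10 lists of cell type markers, with a point for each of 9 libraries coloured by genotype. The astrocyte sums run from 847 to 1080 and the sums of deep nuclei and brainstem neurons from 358 to 399 over all libraries, and in both lists the KI/KI points do not lie below those of WT as a group.

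The genes next to the 4 on the chromosome were read to see whether their neighbourhood was counted and moved with them. Beside Slc6a11, 8 of the 10 nearest protein-coding genes were tested, the most counted being Atp2b2 with 10094 counts. For Vamp1 it was 6 of 10, led by Iffo1 with 10910 and Nop2 with 7191 counts. The antisense neighbours Tapbpl and Cd27, which overlap Vamp1, had 12 and 4 counts, and since the strand setting of the counting is not given in the sources used here, their reads cannot be told apart from those of Vamp1. Around Tac1 8 of 10 were tested, led by Asns with 11497 and Sem1 with 4418 counts, and around Pdzd2 9 of 10, led by Zfr with 33615 and Drosha with 12956.

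Of the 31 neighbours tested, 1 met the criteria in KI/KI against WT mice, where 1.15% of all genes were lower and 0.175% higher. This was Slc25a13, a mitochondrial carrier 1340 kb from Tac1 that was named after its values were seen, with 46.1 CPM in WT, in KI/+ mice 30.4 and in KI/KI mice 30.8, a log2 change of -0.58 and an FDR of 0.157 by edgeR. Nearer to the 4 genes, Asns, 109 kb from Tac1, had a log2 change of -0.0695 (FDR 0.812), and Golph3, 8.12 kb from Pdzd2, one of -0.0416 (FDR 0.907). Mrpl51, 19.3 kb from Vamp1, had a log2 change of 0.12 (FDR 0.739).

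**Figure D5:**
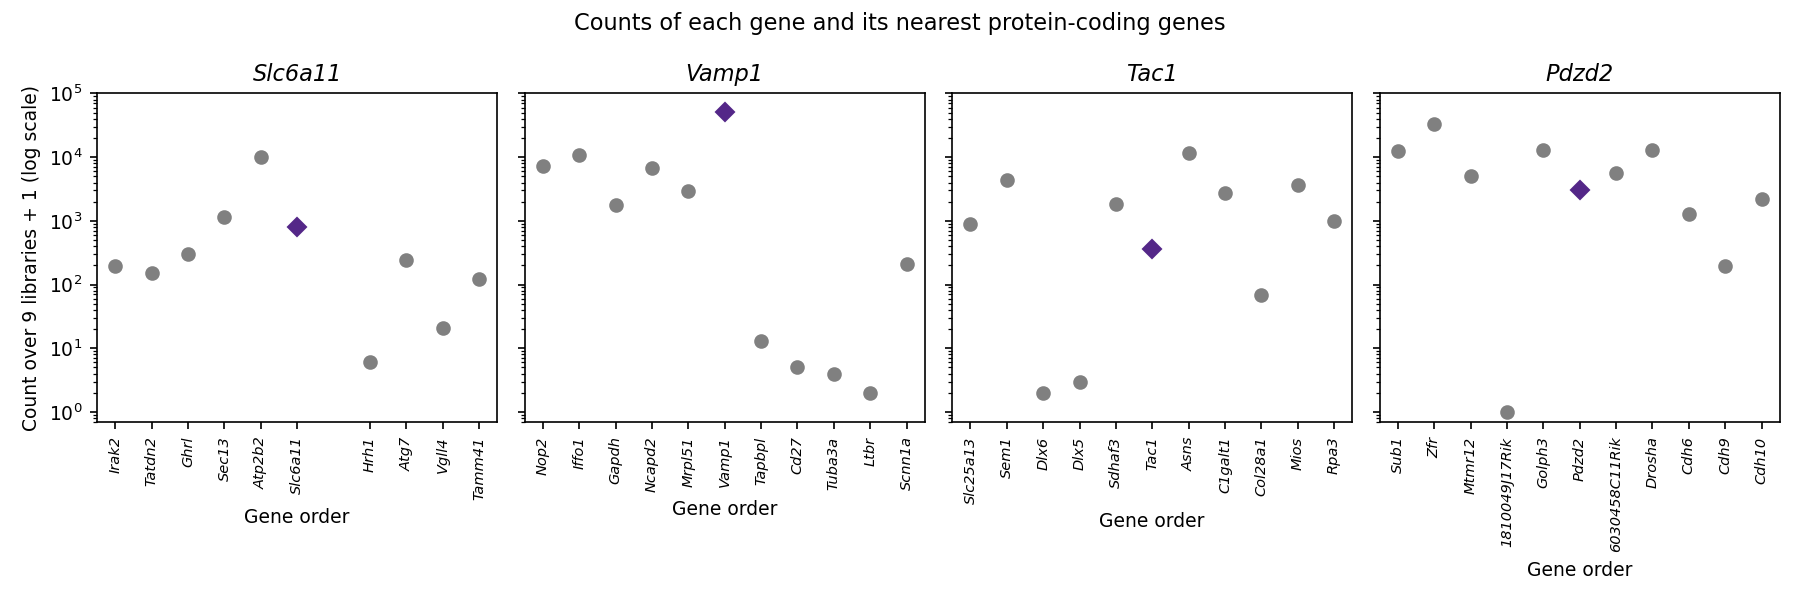
Counts over the 9 libraries plus 1 (vertical log axis) of Slc6a11, Vamp1, Tac1 and Pdzd2 (diamonds) and of the nearest protein-coding genes, up to 5 on each side (circles), in gene order, with 1 neighbour not shown. Vamp1 stands above all its neighbours at 51357 counts, and Tac1, at 355, lies below 7 of its 10.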

How the data were processed

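Cerebellar tissue rich in Purkinje cells was sequenced from WT, KI/+ and KI/KI animals, all females, with 3 libraries per genotype labelled as biological replicates. The authors aligned and counted reads with Rsubread and deposited raw counts per gene without normalization. Their processing notes name GRCm38 and mm10, while the gene annotation, the strand setting and the treatment of reads with several matches are not given in the sources used here. Identifiers were paired with symbols through GENCODE vM21, which held 52029 of the 56953 identifiers.

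The genes, lists and alternatives were chosen with earlier results of these data known. Genes passing edgeR's expression filter (minimum count 10, 10842 genes, 99% of counts) were fitted over all 9 libraries without covariates by edgeR 4.0.16's quasi-likelihood test in R 4.3.3, after TMM normalization and with Benjamini-Hochberg adjustment. The procedure was also run on simulated counts, with an outcome not reported here. These held no difference between replicate 1 and the other libraries, so that they do not check the fit under that difference. Levels are CPM, and log2 CPM used a prior count of 2. Standard errors were derived from the F statistic and intervals are 95%. An exact test of 3 libraries against 3 cannot give a p under 0.1. Depth limits each level to counting error at best.

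Named besides the 4 genes are Kcnd3, the most abundant or called genes of the pathway lists, the 3 genes most like each of the 4, widely used genes, the most counted chromosomal neighbours and cell type markers. Vamp2, Snap25, Pam, Golph3, Mrpl51, Tapbpl, Cd27 and Slc25a13 fall outside this rule and were named after their values were seen. The alternatives were DESeq2 1.42.0, limma 3.58.1's voom with sample weights, RLE normalization, other count filters, edgeR's robust option, a replicate block, the libraries labelled L1 (replicates 1 and 2), thinning to the smallest library, the 6 libraries of a comparison and each library left out. For the correlations, scaling by library totals alone, Spearman's rank correlation and leaving out the 2 farthest libraries were tried too. Replicates 2 and 3 alone and a term for replicate 1 were added after seeing the data. Some genes of the lists are not reported here.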

Additional observations from a re-analysis of the deposited data

How the results depend on the processing

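The results were each recomputed under the alternatives, which gave 499 values in all. Of these, 458 kept their direction and side of the threshold, stayed within the spread between replicates or, for counts of pathway genes, stayed close. A correlation with 2 libraries per genotype could not pass its threshold, so that it is among the 458 whatever its size unless its sign changed. Of the rest, 7 became significant, 22 moved further and 12 changed sign. The cause of these changes was not tested, and in some alternatives fewer libraries or other genes entered the fit. In KI/KI against WT mice the log2 change of Slc6a11 moved from -1.52 to -1.78 with replicates 2 and 3 alone, and all 4 genes kept their direction in both KI/KI comparisons under every alternative that gave a value. Without each library in turn the change against WT lay between -1.67 and -1.42 for Slc6a11, -0.757 and -0.52 for Vamp1, -3.22 and -2.44 for Tac1, and -0.847 and -0.618 for Pdzd2. DESeq2 gave no adjusted p for Slc6a11 and Tac1 in either KI/KI comparison, so that neither could be called. It called Vamp1 and Pdzd2 against WT. Over the alternatives, the genes called lower in KI/KI mice numbered 21 to 241 against WT and 9 to 96 against KI/+, beside 125 and 33 in the fit reported. Tac1 has no value with at least 10 counts required in every library, as KI/+ replicate 3 and a KI/KI library fell short.

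In KI/+ against WT mice, without a count filter Vamp1 passed with -0.401 (FDR 1.25e-05) and Pdzd2 with -0.388 (FDR 0.0549), and the departure from the midpoint passed for Slc6a11 with 0.521 (FDR 0.121) and Tac1 with 1.03 (FDR 0.00146). Vamp1 also passed without WT replicate 1 (-0.532) and with replicates 2 and 3 alone (-0.563, FDR 0.000559). Without each library in turn its change was -0.532 to -0.296. Tac1 turned to 0.0224 with the L1 libraries alone and ran from -0.985 to 0.0767 without each library, and its departure from the midpoint ran from 0.346 to 1.41. For Pdzd2 that departure ran from -0.0686 to 0.0483, with 0.0243 without WT replicate 2, 0.0483 without KI/KI replicate 2 and 0.0125 without KI/+ replicate 3. These ranges cross 0 where the departure itself is small.

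The count of pathway genes called in KI/KI against WT mice, 1 in the fit reported, was 0 under DESeq2, with at least 10 counts in every library, with edgeR's robust option, with the L1 libraries alone and with 6 libraries, 3 under limma-voom, 2 with replicates 2 and 3 alone, and 0 to 4 without each library. Against KI/+ mice, where it was 0, it was 1 without a count filter, with the replicate block, with replicates 2 and 3 alone and with a term for replicate 1, and 0 to 1 without each library. The correlation of Vamp1 and Tac1 was -0.0909 with the L1 libraries alone. That of Tac1 and Pdzd2, near 0 in the main analysis, was -0.00143 with library totals alone, -0.0333 by Spearman, -0.00471 after thinning, -0.666 with the L1 libraries alone, -0.124 when KI/+ replicate 3 was left out and -0.0839 when KI/KI replicate 3 was, and -0.124 to 0.232 without each library.

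The replicate numbers are shared by the 3 genotypes, but the correlation of deviations between same-numbered libraries exceeded 0.1 for the 3 pairs of replicate 1 (0.2 to 0.24) and not for every other pair (-0.0179 to 0.156), so that the replicate 1 libraries deviated together and the numbers as a whole were not taken as pairs. With the replicate block the log2 change in KI/KI against WT mice was -1.52 for Slc6a11, -0.606 for Vamp1, -2.75 for Tac1 and -0.714 for Pdzd2, with 219 genes lower and 66 higher, and in KI/KI against KI/+ mice 96 genes were lower and 68 higher. No call on the 4 genes changed, and the correlations of deviations were 0.349 to 0.982 with 0.102 as the lowest adjusted p by exact permutation.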
